A study of Homo sapiens with 6 samples.

Results

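The proteasome transcripts of MOLM13 cells treated with ZW27941 were compared with those of DMSO controls. The members were the genes whose symbols name proteasome subunits, activators, inhibitors and chaperones (PSMA, PSMB, PSMC, PSMD, PSME, PSMF and PSMG followed by a number) and POMP, which gave 49 of the 56305 genes counted. MOLM13 is an established human acute myeloid leukemia (AML) cell line that carries a FLT3 internal tandem duplication and a rearrangement between 9p22 and 11q23, and both groups share these alleles. Cells received DMSO alone (labelled as 1 μM DMSO, 3 libraries) or 1 μM ZW27941 (3 libraries) for 24 h. ZW27941 is a proteolysis-targeting chimera (PROTAC) that joins a METTL3 ligand to a ligand of the VHL ubiquitin ligase. The labels number the libraries 1 to 3 in each group and do not say whether they came from separate cultures, so p-values measure the spread between these libraries, which may be technical.

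The proteasome is the protease that breaks down ubiquitin-tagged proteins, and a PROTAC acts through it. Its 20S core is a barrel of stacked rings. The outer rings of alpha subunits (PSMA genes) gate the entrance, and the inner rings of beta subunits (PSMB genes) hold the active sites. The 19S cap recognizes ubiquitin chains, removes them and unfolds the substrate with a ring of ATPases (PSMC genes) and other base and lid subunits (PSMD genes). In immune and hematopoietic cells, the catalytic beta subunits PSMB5, PSMB6 and PSMB7 can be replaced by the interferon-inducible PSMB8, PSMB9 and PSMB10, which form the immunoproteasome and favor peptides for antigen presentation. Dedicated chaperones, which do not stay in the finished particle, assemble the core and the cap.

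Each library held 143454176 to 178744976 counts on genes, more than the raw reads per sample that the labels name, for which the sources used here give no reason. Of these counts, the members took 0.359% to 0.378%. The myeloid genes CD33, FLT3, HOXA9, MEIS1, SPI1, PTPRC, LYZ and MPO were at 45.2 CPM or more in every library. Of the markers of other lineages, HBB had a count of 0 and CD3E, EPCAM and KRT19 at most 6 counts in any library, MS4A1 at most 8, and CD3D and COL1A1 were at most at 1.17 CPM. ZW27941 acts on METTL3 protein, and the METTL3 transcript (log2 fold change 0.013, edgeR adjusted p = 0.765) therefore gives no check of the labels. CPM is the count of a gene per 1e+06 counts of its library after TMM normalization. Fold changes compare ZW27941 with DMSO. A gene is said to rise or fall where the edgeR quasi-likelihood test, adjusted over all genes tested, gave p under 0.05. In bulk RNA, fewer cells carrying a transcript and less of it per cell cannot be told apart.

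Of the 49 members, 47 passed the filter on low counts. PSMB11, the thymus-specific beta subunit, had 0 counts in every library, which allows at most 0.0209 CPM in the smallest one for counting error alone. PSMA8, the alpha subunit of germ cells, had 1 count in DMSO replicate 1 and 0 elsewhere. Of the 47, 22 fell and 7 rose on ZW27941. The fallen members made up 46.8% of those tested, where 13.8% of all 20399 genes tested fell, and the risen members 14.9%, where 16.3% of all genes rose. Proteasome transcripts are abundant, and abundant genes pass such a test more often. Among the genes at a mean of at least 10 CPM, 20.3% fell and 25.6% rose, and among the 44 members at that level 50% fell and 15.9% rose. Without the floor of 10 CPM, 61.7% of the members tested passed in either direction, against 30.1% of all genes. Under upper quartile normalization 81.8% of the members that passed were lower in place of 75.9%, and of all genes that passed 57.9% in place of 45.8%. No test was made of the members as a set.

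The changes were small. The median log2 fold change was −0.083 over the 47 members and −0.0019 over all genes tested, and those of the members ran from −0.16 to 0.22. In 33 of the 47 members (70.2%) the ZW27941 and DMSO libraries did not overlap, 26 lower and 7 higher, where 41.6% of all genes tested did not overlap. That share is over genes of all levels, and it was not taken among abundant genes alone. The 47 transcripts together came to 3783, 3773 and 3742 CPM in DMSO and to 3588, 3577 and 3730 CPM on ZW27941. ZW27941 replicate 3 was the closest of its group to the DMSO libraries. The median member of that library was at −0.040 on the log2 scale relative to the DMSO mean, where ZW27941 replicates 1 and 2 were at −0.097 and −0.099. Without this library, 27 members fell and 7 rose, where 2883 of all genes fell and 3251 rose. Without ZW27941 replicate 1, 15 members fell and 5 rose (2326 and 2831 of all genes). Without ZW27941 replicate 2, 16 members fell and 7 rose (2223 and 2716 of all genes).

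**Figure D1:**
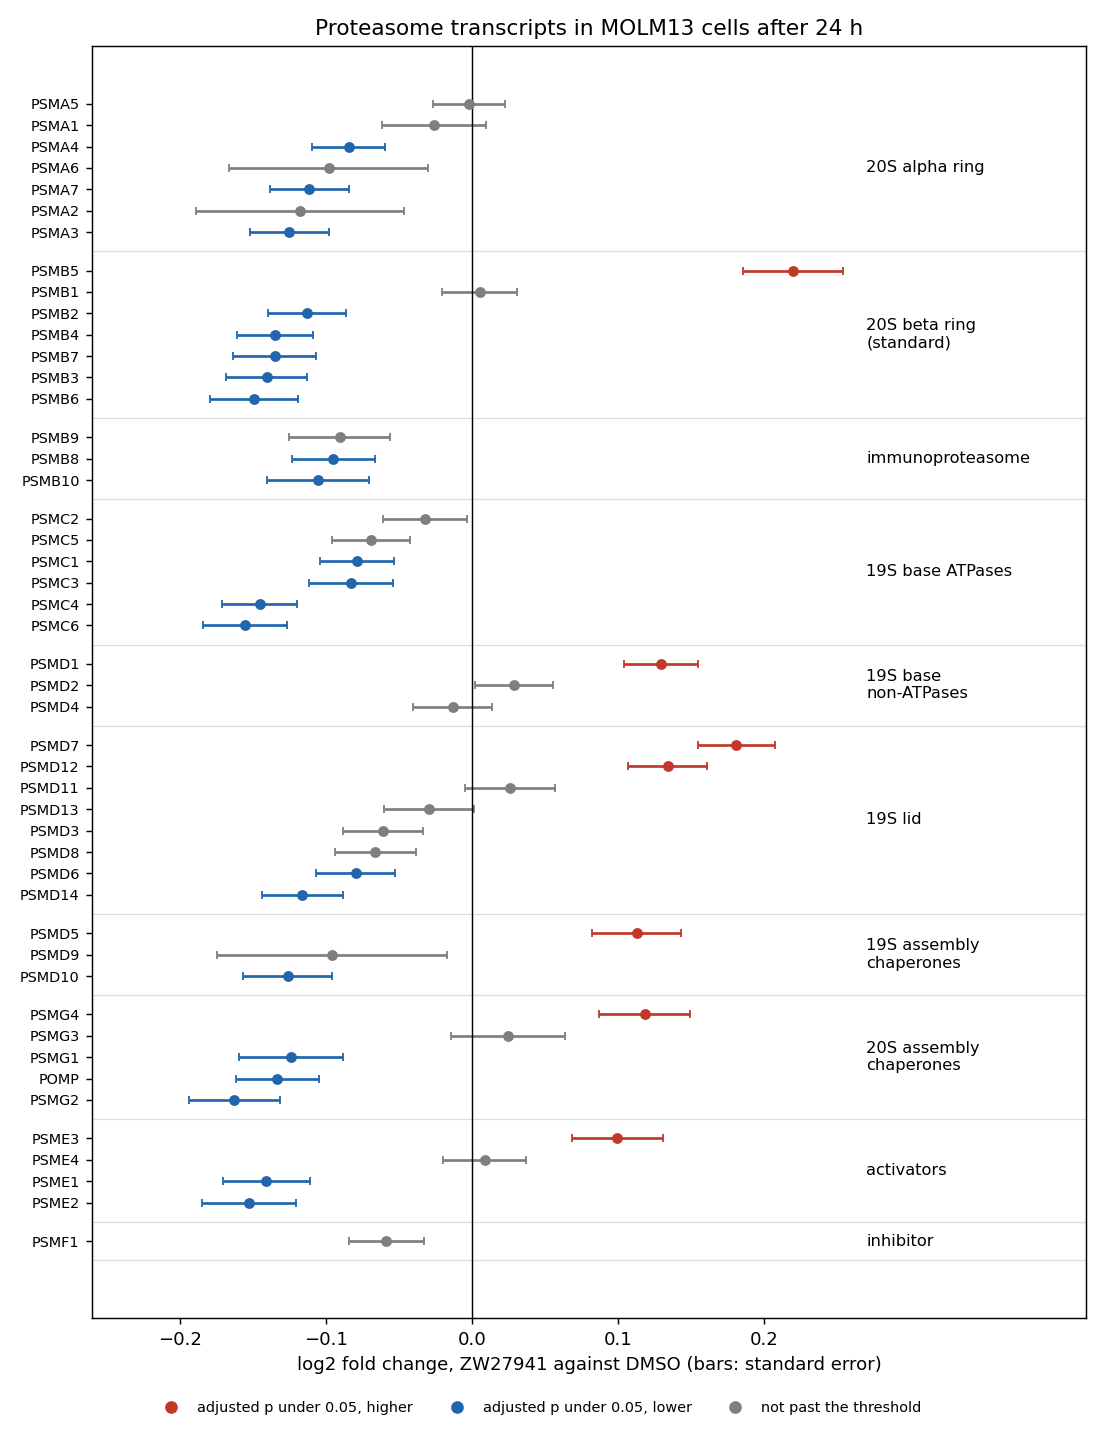
Log2 fold change of each tested proteasome member on ZW27941 against DMSO (x axis, points with standard error bars, 3 libraries per group), arranged by class on the y axis. Most points lie left of 0, between −0.16 and 0, and 7 red points from 6 classes lie at 0.10 to 0.22, of which PSMB5 is the farthest right.

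In the alpha ring, PSMA3, PSMA4 and PSMA7 fell and PSMA1, PSMA2, PSMA5 and PSMA6 did not pass, while all 7 fold changes were below 0. Those that fell were 42.9%, where 13.8% of all genes tested fell and 50.4% had a log2 fold change below 0. PSMA2 and PSMA6, at 4.40 and 5.13 CPM in DMSO, had log2 fold changes of −0.12 and −0.098 (standard errors 0.071 and 0.068). The groups were apart in PSMA2 and overlapped in PSMA6. PSMA3 was at 96.0, 92.1 and 93.8 CPM in DMSO and at 83.5, 86.9 and 88.1 CPM on ZW27941. Every treated library was below every control (log2 fold change −0.13, standard error 0.027, edgeR adjusted p = 0.00125). PSMA7 had a log2 fold change of −0.11 and PSMA4 of −0.085. The PSMA4 call was lost without DMSO replicate 1, ZW27941 replicate 1 or ZW27941 replicate 2 (edgeR adjusted p = 0.0556, 0.0547 and 0.085). PSMA5 was at 96.4 ± 1.43 CPM in DMSO and 96.3 ± 0.890 CPM on ZW27941 (SD, n = 3 each), and the 95% interval of its log2 fold change ran from −0.054 to 0.049.

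In the beta ring, PSMB5 moved against its neighbors. PSMB5 carries the chymotrypsin-like site of the core, the main target of bortezomib. It was at 46.7, 48.5 and 47.9 CPM in DMSO and at 55.1, 52.5 and 59.0 CPM on ZW27941. All treated libraries were above all controls, and the treated ones spread more (log2 fold change 0.22, standard error 0.034, edgeR adjusted p = 4.18e-05). This 16.5% rise was the largest of any member. The other catalytic subunits fell. PSMB6, with the caspase-like site, was at 39.2, 40.4 and 39.2 CPM in DMSO and at 35.0, 35.2 and 36.9 CPM on ZW27941 (log2 fold change −0.15, edgeR adjusted p = 6.52e-04). PSMB7, with the trypsin-like site, was at 84.3, 86.7 and 82.9 CPM in DMSO and at 75.4, 75.7 and 80.2 CPM on ZW27941 (log2 fold change −0.14, edgeR adjusted p = 9.91e-04). In both the groups were apart. Of the subunits without an active site, PSMB2, PSMB3 and PSMB4 fell. PSMB4 was at 208, 209.9 and 213 CPM in DMSO and at 189, 187 and 198 CPM on ZW27941 (log2 fold change −0.13). PSMB2 had a log2 fold change of −0.11 and PSMB3 of −0.14. PSMB1 was at 162 ± 2.31 CPM in DMSO and 163 ± 4.71 CPM on ZW27941 (SD, n = 3 each), with a 95% interval of the log2 fold change from −0.048 to 0.059. The summed level of the 14 standard core subunits tested was 1133 to 1140 CPM in DMSO and 1061 to 1111 CPM on ZW27941, without overlap.

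**Figure D2:**
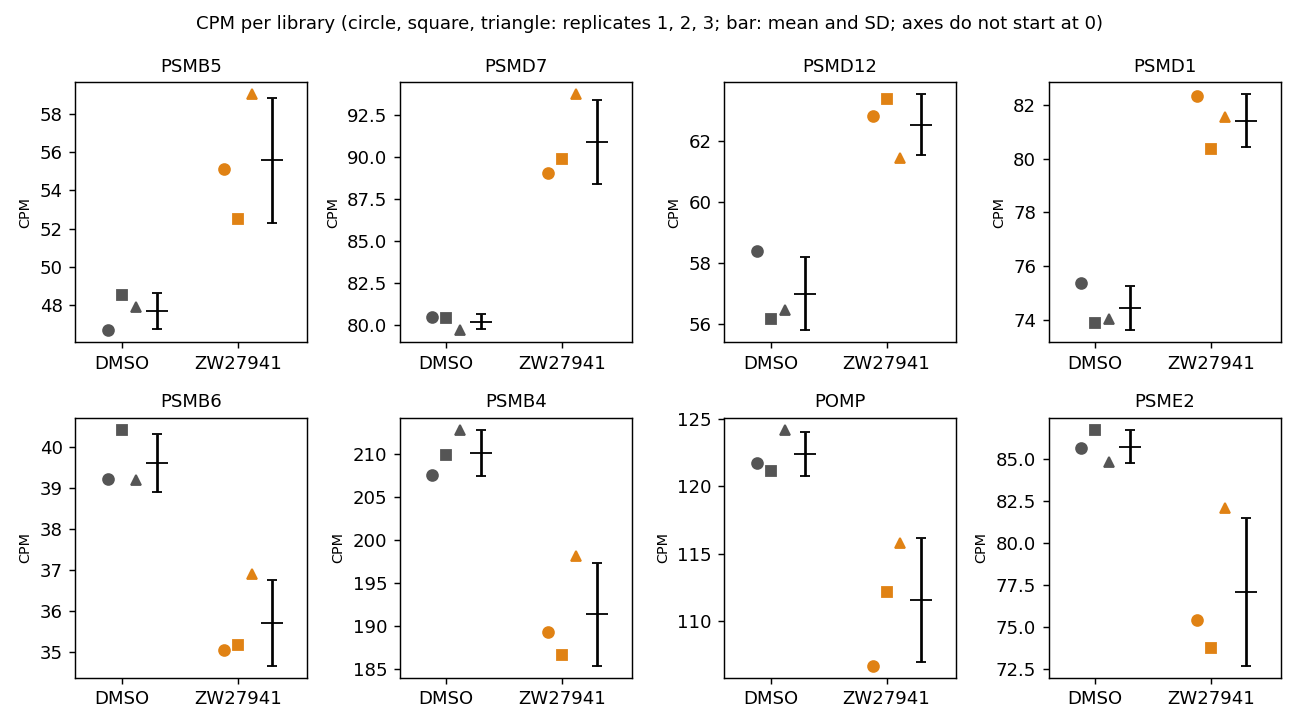
CPM (y axes, each with its own range that does not start at 0) of PSMB5 and 7 other members in the 3 DMSO and 3 ZW27941 libraries, with a bar for the mean and SD of each group. In PSMB5, PSMD7, PSMD12 and PSMD1 every ZW27941 library is above every DMSO library, in PSMB6, PSMB4, POMP and PSME2 every one is below, and ZW27941 replicate 3 (triangle) is the nearest to DMSO in these last 4.

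Of the immunoproteasome subunits, PSMB8 and PSMB10 fell and PSMB9 did not pass. Their log2 fold changes lay close together, from −0.11 to −0.091. PSMB8, which takes the place of PSMB5, was at 160.5, 163 and 164 CPM in DMSO and at 149, 148 and 160.1 CPM on ZW27941. The groups nearly touched (log2 fold change −0.095, standard error 0.028, edgeR adjusted p = 0.014), and the call was lost without DMSO replicate 3, ZW27941 replicate 1 or ZW27941 replicate 2 (edgeR adjusted p = 0.067, 0.0683 and 0.103). PSMB9, which takes the place of PSMB6, was at 53.7, 56.6 and 54.2 CPM in DMSO and at 50.9, 48.8 and 54.7 CPM on ZW27941. The groups overlapped through ZW27941 replicate 3, and PSMB9 did not pass (log2 fold change −0.091, edgeR adjusted p = 0.0506). PSMB9 passed without that library (log2 fold change −0.14, edgeR adjusted p = 6.87e-04) and, with all libraries, under RLE size factors, upper quartile normalization, no filter and a minimum of 10 counts (edgeR adjusted p = 0.0426, 0.0153, 0.0269 and 0.0459). Over 14 alternatives its adjusted p from edgeR or DESeq2 ran from 6.87e-04 to 0.284. PSMB10, which takes the place of PSMB7, was at 25.7, 28.1 and 27.0 CPM in DMSO and at 24.7, 24.7 and 25.7 CPM on ZW27941 (log2 fold change −0.11, edgeR adjusted p = 0.0243). Its groups were apart by a small gap, and leaving out any library but DMSO replicate 1 or ZW27941 replicate 3 lost the call (edgeR adjusted p from 0.0639 to 0.164).

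PSMB8 and PSMB9 lie next to each other in the major histocompatibility complex, at chr6:32840717-32844703 and chr6:32844136-32859585 in GRCh38, on opposite strands. PSMB8-AS1, a non-coding gene, overlaps both, and 20.6% of the annotated exon bases of PSMB8 are also exon bases of PSMB8-AS1. PSMB8-AS1 rose from 27.2 ± 0.420 CPM to 30.8 ± 0.534 CPM (SD, n = 3 each), a log2 fold change of 0.18 (edgeR adjusted p = 8.72e-05). The sources used here do not say whether counting used strand, and without strand reads of the overlap cannot be told apart. PSMB10 lies at chr16:67934502-67937087 and shares 34.8% of its exon bases with AC040162.1, a protein-coding gene on the same strand. Part of the reads of such overlaps may have been left out as ambiguous, which was not tested.

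To see whether the immunoproteasome subunits changed relative to the subunits they replace, the ratio of their counts was taken within each library, where the normalization cancels. The PSMB8/PSMB5 ratio was 3.44, 3.36 and 3.43 in DMSO and 2.70, 2.81 and 2.71 on ZW27941. All treated ratios were below all control ratios (difference of mean log2 ratios −0.31, two-sided exact permutation p = 0.1, adjusted over the 3 ratios 0.3). With 3 against 3 libraries 0.1 is the smallest p this test can give. The PSMB9/PSMB6 ratio was 1.37, 1.40 and 1.38 in DMSO and 1.45, 1.39 and 1.48 on ZW27941 (difference 0.057, exact permutation p = 0.2, adjusted 0.3). The PSMB10/PSMB7 ratio was 0.305, 0.324 and 0.325 in DMSO and 0.328, 0.327 and 0.320 on ZW27941 (difference 0.031, exact permutation p = 0.5, adjusted 0.5). In both of these pairs the groups overlapped. The difference of PSMB10/PSMB7 rested on DMSO replicate 1, without which it was 0.0011, and that of PSMB9/PSMB6 was 0.037 without ZW27941 replicate 3. The ratio whose groups did not overlap was the one with PSMB5 in its denominator.

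**Figure D3:**
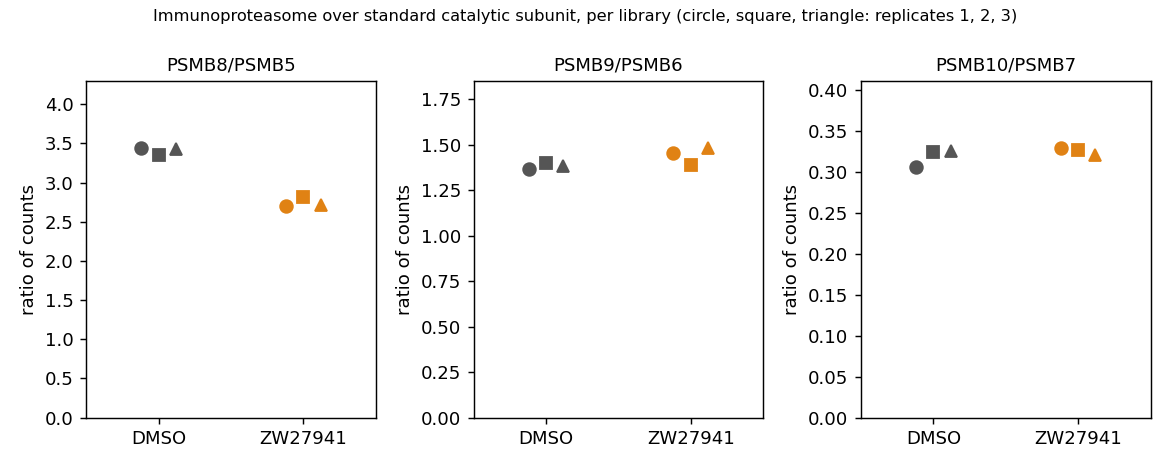
Ratio of the counts of each immunoproteasome subunit to the standard catalytic subunit it replaces (y axes, from 0), in the 3 DMSO and 3 ZW27941 libraries, 1 point per library. PSMB8/PSMB5 lies at 3.36 to 3.44 in DMSO and 2.70 to 2.81 on ZW27941, and the other 2 ratios overlap between the groups.

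Among the ATPases of the 19S base, PSMC1, PSMC3, PSMC4 and PSMC6 fell, PSMC2 and PSMC5 did not pass, and all 6 fold changes were below 0. Those that fell were 66.7%, where 20.3% of all genes at 10 CPM or more fell. Of all genes tested, 50.4% had a log2 fold change below 0. PSMC6 was at 74.7, 69.9 and 75.3 CPM in DMSO and at 65.1, 66.2 and 66.0 CPM on ZW27941. Its groups were apart (log2 fold change −0.16, standard error 0.029, edgeR adjusted p = 2.86e-04). PSMC4 was at 80.0, 79.9 and 79.3 CPM in DMSO and at 72.5, 70.4 and 73.3 CPM on ZW27941 (log2 fold change −0.15, edgeR adjusted p = 1.70e-04). The libraries of each group lay close together, with a wide gap between the groups. PSMC1 and PSMC3 had log2 fold changes of −0.079 and −0.083. PSMC1 shares 75.8% of its exon bases with NRDE2, a protein-coding gene on the other strand. Whether reads of NRDE2 were counted in PSMC1 was not tested. The PSMC1 call was lost without DMSO replicates 1 or 3 or ZW27941 replicates 1 or 2 (edgeR adjusted p from 0.0584 to 0.0981) and the PSMC3 call without DMSO replicates 1 or 2 or ZW27941 replicates 1 or 2 (edgeR adjusted p from 0.0509 to 0.169) and with normalization for library size only (edgeR adjusted p = 0.0528). PSMC5 had a log2 fold change of −0.069 (edgeR adjusted p = 0.054) and passed in 5 of 14 alternatives, among them the one without ZW27941 replicate 3 and the one with DESeq2 (adjusted p from 0.00788 to 0.25 over the 14).

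Of the other 3 base subunits, 1 rose (33.3%) and 0 fell, where 25.6% of all genes at 10 CPM or more rose and 20.3% fell. PSMD1, a large scaffold subunit, was at 75.4, 73.9 and 74.0 CPM in DMSO and at 82.3, 80.4 and 81.6 CPM on ZW27941. It rose with a wide gap between the groups (log2 fold change 0.13, standard error 0.025, edgeR adjusted p = 4.49e-04). PSMD2, the other large scaffold, was at 147 ± 4.33 CPM and 150.4 ± 3.42 CPM (SD, n = 3 each), and PSMD4, a receptor for ubiquitin chains, at 230.5 ± 1.32 CPM and 228 ± 8.92 CPM (SD, n = 3 each). Neither passed, and the groups overlapped in both. The 95% interval of the log2 fold change ran from −0.027 to 0.085 for PSMD2 and from −0.069 to 0.043 for PSMD4. Both PSMD4 libraries at the ends of the range, 220.0 and 238 CPM, were treated ones.

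Of the 8 lid members, 2 rose and 2 fell (25% each), near the 25.6% and 20.3% of all genes at 10 CPM or more. PSMD7 was at 80.5, 80.4 and 79.7 CPM in DMSO and at 89.0, 89.9 and 93.8 CPM on ZW27941. Its control libraries were within 1 CPM of each other, and all treated ones were above (log2 fold change 0.18, standard error 0.026, edgeR adjusted p = 1.89e-05). PSMD14, the deubiquitinase that cuts ubiquitin chains from the substrate, pairs with PSMD7 in the lid. It was at 60.7, 59.6 and 60.5 CPM in DMSO and at 54.4, 55.1 and 57.3 CPM on ZW27941 (log2 fold change −0.12, edgeR adjusted p = 0.00269). The partners thus changed in opposite directions, each past its own test and with no overlap between groups. PSMD12, a scaffold subunit, was at 58.4, 56.2 and 56.5 CPM in DMSO and at 62.8, 63.4 and 61.4 CPM on ZW27941 (log2 fold change 0.13, edgeR adjusted p = 6.62e-04). PSMD6 fell by 0.080 on the log2 scale (edgeR adjusted p = 0.0291), a call that was lost in 7 of 14 alternatives, among them those without DMSO replicates 1 or 2 or ZW27941 replicates 1 or 2 (edgeR adjusted p from 0.0606 to 0.149) and the one with a replicate block (edgeR adjusted p = 0.0536). PSMD3, PSMD8, PSMD11 and PSMD13 did not pass, with log2 fold changes from −0.066 to 0.026. PSMD3 and PSMD8 passed without ZW27941 replicate 3 (edgeR adjusted p = 0.0378 and 0.0389), and PSMD8 without DMSO replicate 3 (edgeR adjusted p = 0.023). Both also passed with upper quartile normalization (edgeR adjusted p = 0.0234 and 0.0158). Over 14 alternatives these ran up to 0.408 for PSMD3 and 0.3 for PSMD8.

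PSMD7 lies at chr16:74296775-74306288 and shares 30.7% of its exon bases with AC009120.2, a non-coding gene on the other strand, and whether reads of that gene were counted in PSMD7 was not tested. PSMB5, at chr14:23016543-23035230, and PSMD12, at chr17:67337916-67366627, share no exon bases with another gene. For PSMD1, at chr2:231056864-231172827, the share was 10.8%, with HTR2B on the other strand. The 17 members of the 19S cap summed to 1576 to 1601 CPM in DMSO and to 1544 to 1599 CPM on ZW27941, which overlapped, unlike the standard core subunits. A test of this difference between core and cap was not made.

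Among the chaperones of the 20S core, POMP, which helps the core mature and is its first substrate, was at 122, 121 and 124 CPM in DMSO and at 107, 112 and 116 CPM on ZW27941. It fell without overlap (log2 fold change −0.13, standard error 0.028, edgeR adjusted p = 0.00102). PSMG1 and PSMG2 form a pair that holds the alpha ring during assembly. PSMG2 was at 53.8, 50.0 and 50.6 CPM in DMSO and at 44.6, 47.0 and 46.4 CPM on ZW27941 (log2 fold change −0.16, edgeR adjusted p = 4.09e-04), the largest fall of any member. PSMG1 was at 33.5, 31.8 and 31.8 CPM in DMSO and at 28.0, 30.6 and 30.5 CPM on ZW27941 (log2 fold change −0.12, edgeR adjusted p = 0.0111), and its call was lost without DMSO replicate 1 or ZW27941 replicate 1 (edgeR adjusted p = 0.0787 and 0.108). PSMG3 and PSMG4 form the second pair. PSMG4 rose, from 24.6, 23.7 and 24.8 CPM to 26.4, 26.3 and 26.6 CPM (log2 fold change 0.12, edgeR adjusted p = 0.00586), while PSMG3 was at 20.7 ± 0.588 CPM and 21.1 ± 1.20 CPM (SD, n = 3 each), with an interval of the log2 fold change from −0.056 to 0.11. Both partners fell in the first pair, and 1 partner rose in the second. PSMG2 and PSMG4 share 16.7% and 15.0% of their exon bases with genes on the other strand. What this did to their counts was not tested.

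The chaperones of the 19S base also differed. PSMD10 (gankyrin) was at 32.0, 31.5 and 32.7 CPM in DMSO and at 29.9, 28.8 and 29.4 CPM on ZW27941, without overlap (log2 fold change −0.13, edgeR adjusted p = 0.00287). PSMD5 was at 45.4, 48.4 and 48.3 CPM in DMSO and at 52.7, 50.3 and 50.6 CPM on ZW27941 (log2 fold change 0.11, edgeR adjusted p = 0.00722). The rise of PSMD5 was lost without DMSO replicate 1 or ZW27941 replicate 1 (edgeR adjusted p = 0.0599 and 0.0529). PSMD9 was at 3.72 ± 0.298 CPM and 3.47 ± 0.172 CPM (SD, n = 3 each) and did not pass (edgeR adjusted p = 0.394). All 3 bind ATPases of the base while it is built.

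The activators are alternative caps of the core. PSME1 and PSME2 build the interferon-inducible activator that works with the immunoproteasome. PSME1 was at 149, 146 and 143 CPM in DMSO and at 129, 129 and 140 CPM on ZW27941 (log2 fold change −0.14, edgeR adjusted p = 0.00102). PSME2 was at 85.6, 86.7 and 84.8 CPM in DMSO and at 75.4, 73.8 and 82.1 CPM on ZW27941 (log2 fold change −0.15, edgeR adjusted p = 8.84e-04). Both fell by 9.29% to 10.0%, and in both ZW27941 replicate 3 was the treated library nearest to the controls. PSME3, which forms the nuclear activator, was at 97.2, 94.2 and 87.2 CPM in DMSO and at 100.4, 98.5 and 99.5 CPM on ZW27941 (log2 fold change 0.10, edgeR adjusted p = 0.0192). Its control libraries spread widely, and the call was lost without DMSO replicate 3 (log2 fold change 0.057, edgeR adjusted p = 0.184), without ZW27941 replicate 1 (edgeR adjusted p = 0.0563) and with upper quartile normalization (edgeR adjusted p = 0.0676). PSME4, the largest activator, was at 61.8 ± 2.10 CPM and 62.1 ± 0.521 CPM (SD, n = 3 each), and PSMF1, which encodes the inhibitor PI31, at 73.3 ± 0.721 CPM and 70.3 ± 1.12 CPM (SD, n = 3 each). PSMF1 did not pass (log2 fold change −0.059, edgeR adjusted p = 0.0905) although its groups did not overlap, and it passed without ZW27941 replicate 3 and with upper quartile normalization (edgeR adjusted p = 0.0466 and 0.0189, from 0.0189 to 0.275 over 14 alternatives).

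To compare levels between members, the CPM were divided by the length of a principal transcript, the longest where there were several. The counts are of the whole gene, so the order of the members depends on this choice. Other lengths were not tried. PSMB4 (218 ± 2.78 CPM per kb, SD, n = 3), PSMB1 (175 ± 2.49) and PSMD4 (171 ± 0.976) had the highest levels in DMSO. PSME1 (145 ± 2.97 CPM per kb) and PSMB8 (145 ± 1.80) came next and did not differ beyond their spread. PSMB8 thus stood above PSMB5 (36.9 ± 0.723 CPM per kb in DMSO and 42.9 ± 2.52 on ZW27941), PSMB9 (70.1 ± 1.99) above PSMB6 (46.5 ± 0.823), and PSMB10 (22.1 ± 0.988) below PSMB7 (86.4 ± 1.97), all per kb in DMSO. The median of the 47 members was 33.5 CPM per kb.

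The 4 lowest were PSME4 at 8.70 ± 0.296, PSMA6 at 4.99 ± 0.273, PSMA2 at 2.96 ± 0.212 and PSMD9 at 1.22 ± 0.0977 CPM per kb (SD, n = 3 each). Alpha subunits occur in equal numbers in the core, but PSMA3 was at 96.9 ± 2.05 CPM per kb. PSMA2, PSMA6 and PSMD9 share 34.6%, 14.1% and 22.6% of their exon bases with other genes, each in part with a protein-coding gene on the same strand. HTSeq sets aside reads that lie in the exons of more than 1 gene, and such ambiguous reads were 2.69% to 2.80% of the reads tallied per library. PSMA6P1, a pseudogene of PSMA6, had up to 36.1% as many counts as PSMA6. Whether reads were lost to these genes was not tested, so the low levels of PSMA2, PSMA6 and PSMD9 are levels of the counts that were assigned. PSMC1P1 had up to 2.41% as many counts as PSMC1, and the other 29 pseudogenes of members had less than 1% of their member's counts.

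**Figure D4:**
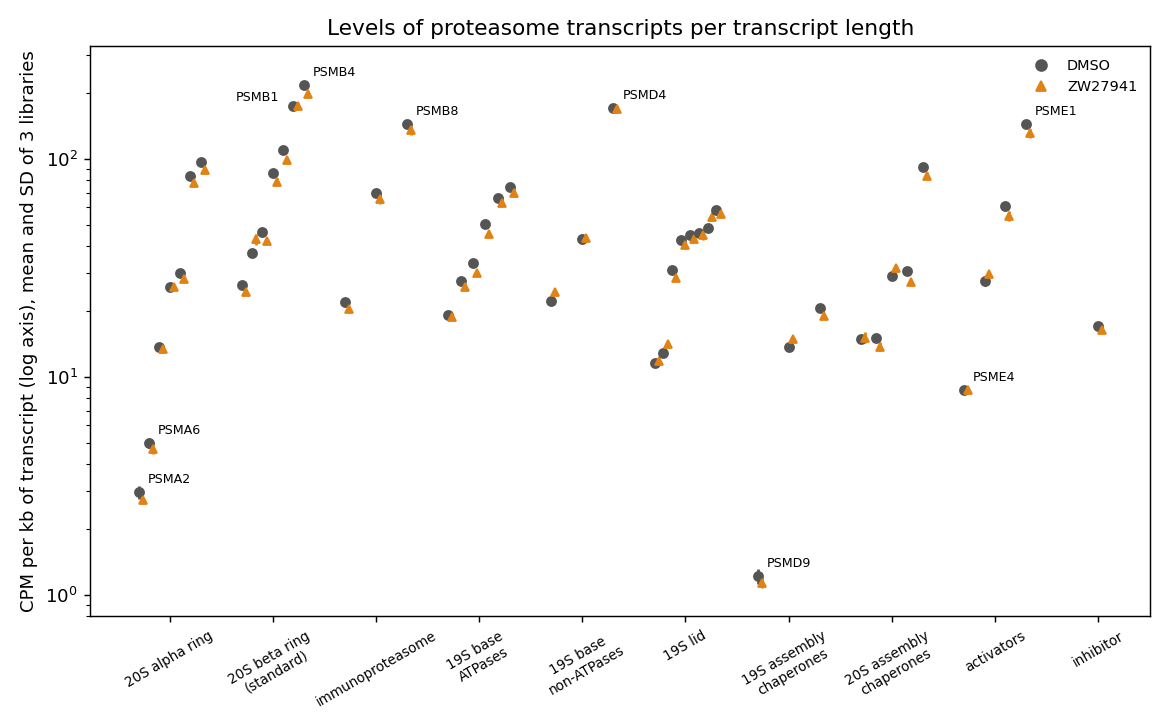
Level of each tested member as CPM per kb of transcript (y axis, log scale; mean and SD of 3 libraries per group) by class (x axis), with DMSO as circles and ZW27941 as triangles. Levels span 1.22 to 218 CPM per kb in DMSO, far more than the shifts between groups, and PSMA2, PSMA6 and PSMD9 sit apart at the bottom.

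Of the antisense and pseudogene transcripts of members, 5 antisense and 4 pseudogene transcripts passed the filter. PSMB8-AS1, PSMG3-AS1 (log2 fold change 0.26, edgeR adjusted p = 0.00176) and PSMD6-AS2 (log2 fold change 0.29, edgeR adjusted p = 0.00969) rose. PSMD6-AS2 was at 4.291, 4.409 and 4.559 CPM in DMSO and at 6.001, 5.652 and 4.561 CPM on ZW27941. Its groups nearly touched through ZW27941 replicate 3. PSMD5-AS1 fell (log2 fold change −0.11, edgeR adjusted p = 0.0236), although its groups overlapped, and PSMA3-AS1 did not pass (log2 fold change 0.040). The pseudogenes PSMA6P1, PSMC1P1, PSMD12P and PSME2P2 did not pass (edgeR adjusted p from 0.251 to 0.600).

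Other genes of the pathway were described from 4 lists. Among 21 proteasome-associated factors, 5 fell and 1 rose (23.8% and 4.76%), where 20.3% of all genes at a mean of at least 10 CPM fell and 25.6% rose. The share that fell was near that of all such genes. PAAF1, a chaperone of the 19S base that the symbol rule does not take in, had a log2 fold change of −0.12, and TXNL1, a thioredoxin-like protein bound to the cap, fell most, by 0.13 on the log2 scale (edgeR adjusted p = 0.00102). KIAA0368 and AKIRIN2, which carries proteasomes into the nucleus, also fell. The gene that rose was VCP, an unfoldase that works upstream of the proteasome, from 194 ± 3.25 CPM to 214 ± 2.27 CPM (SD, n = 3 each, log2 fold change 0.14, edgeR adjusted p = 1.35e-04). ADRM1, a ubiquitin receptor of the cap, did not pass (log2 fold change −0.046). Among the ubiquitin genes and activating enzymes, UBA1, the main activating enzyme, fell. It was at 283 ± 4.62 CPM in DMSO and 251 ± 2.23 CPM on ZW27941 (SD, n = 3 each, log2 fold change −0.17, edgeR adjusted p = 1.17e-05). UBB, a ubiquitin gene, had a log2 fold change of 0.034, and UBB, RPS27A and UBA6 did not pass.

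Immunoproteasome genes answer to interferon. Of 5 genes linked to them, 3 fell and 0 rose, where 20.3% of all genes at 10 CPM or more fell and 25.6% rose. IRF1, an interferon-induced transcription factor, fell by 0.14 on the log2 scale (edgeR adjusted p = 0.00106). NLRC5, an activator of antigen presentation genes, also fell (log2 fold change −0.094, edgeR adjusted p = 0.0107). TAP1, which lies beside PSMB9 and encodes a peptide transporter, was at 58.8 ± 1.93 CPM and 56.9 ± 1.61 CPM (SD, n = 3 each) and did not pass (edgeR adjusted p = 0.254). TAP2 missed the threshold (log2 fold change −0.11, edgeR adjusted p = 0.0518).

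NFE2L1 is the transcription factor that raises proteasome genes together when proteasome activity is short, with small MAF proteins as partners, and it binds antioxidant response elements. Its transcript was at 103 ± 2.23 CPM in DMSO and 106 ± 2.30 CPM on ZW27941 (SD, n = 3 each), which did not pass (log2 fold change 0.041, edgeR adjusted p = 0.257). NFE2L2, a related factor of the oxidative stress response, rose (log2 fold change 0.11, edgeR adjusted p = 0.00394), and NFE2L3 did not pass (log2 fold change −0.029). Of the 10 genes of the list 2 rose and 3 fell (20% and 30%), near the shares of all genes at 10 CPM or more, of which 25.6% rose and 20.3% fell. MAFF fell most (log2 fold change −0.31, edgeR adjusted p = 1.00e-04), MAFK and NGLY1 also fell, and MAFG rose by 0.071 on the log2 scale. DDI2, the protease that activates NFE2L1, did not pass.

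The element was looked for as TGACNNNGC, on both strands, in windows of 250 bases before to 50 after the start of each gene (RefSeq, GRCh38.p14). Windows were found for 43 of the 49 members and not for PSMA7, PSMB1, PSMB6, PSMB7, PSMD4 and PSMG3. The letters were in a window of 15 of the 43 members (34.9%), against 16.1% of 27305 genes. They were in 3 of 7 members that rose, 7 of 19 that fell and 5 of 15 that did not pass, and PSMA8 and PSMB11 were not tested. The windows of PSMB5 and PSMD7 did not hold them. The 27305 genes were not limited to genes tested here or to abundant ones, and the share among such genes was not taken. The stretches are shown for the members that rose or fell and hold the letters before the start, so that the sites can be compared between both directions, with the match in capitals. The 2 members that rose come first.

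PSMD5 (chr9:120843038-120843066, minus strand): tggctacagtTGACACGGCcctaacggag
PSMD12 (chr17:67366724-67366752, minus strand): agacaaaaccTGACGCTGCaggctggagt
PSMA4 (chr15:78540650-78540678, plus strand): gtgggcacgaTGACTCTGCaccgcctcct
PSMB3 (chr17:38752627-38752655, plus strand): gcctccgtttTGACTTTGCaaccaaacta
PSMG1 (chr21:39183616-39183644, minus strand): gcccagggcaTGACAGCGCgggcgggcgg
PSMG2 (chr18:12658689-12658717, plus strand): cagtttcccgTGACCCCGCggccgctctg
PSME1 (chr14:24136098-24136126, plus strand): atggcagggcTGACCCCGCctcctccatc
PSME2 (chr14:24146767-24146795, minus strand): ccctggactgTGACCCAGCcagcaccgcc

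PSMG2 and PSME1 hold the same 9 letters, TGACCCCGC, and both fell. The variable letters differed between the 2 members that rose. In PSMC4, which fell, and PSMD1, which rose, the letters lie after the start. By the bounds of the genes in GENCODE v29, the stretches of PSMA4, PSMG1, PSMG2 and PSME2 lie within the gene and the others before it. A match is a description of the sequence and was not tested for binding.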

How the data were processed

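RNA from 3 DMSO and 3 ZW27941 libraries was sequenced as paired reads. The deposited values are unnormalized read counts, 1 row a gene symbol, from HTSeq 2.0.3 as the authors ran it. The submitters' processing notes also name HISAT2, SAMtools 1.19.2 and the build hg38. The annotation and the strand setting are not given in the sources used here. Counts were used as deposited, and 5 tallies of unassigned reads (37.4% to 39.8% of the reads tallied) were left out. Counts were fitted over all genes in R 4.3.3 with edgeR 4.0.16 (TMM, filterByExpr, quasi-likelihood test), and adjustment over 20399 genes followed Benjamini and Hochberg. The common biological coefficient of variation was 3.11%. The steps were tested on simulated counts with planted changes larger than that of any member. That test does not show how well changes as small as those of the members are found. Alternatives were other normalizations and filters, DESeq2 1.42.0, a replicate block, added pseudogene counts and each library left out. Gene positions, overlaps and transcript lengths came from GENCODE v29 (GRCh38) and promoters from RefSeq. Classes, lists and members were chosen with earlier results of these data known. By rule, catalytic and immunoproteasome subunits, PSMD4, PSMD14, activators, PSMF1 and chaperones were named, with the largest rise and fall of each class and list. Other members were named after their values were seen. Some genes of the marker and pathway lists are not reported here. Limits at a count of 0 use 3 counts.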

Additional observations from a re-analysis of the deposited data

How the results depend on the processing

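The counts of proteasome members that fell (22) and rose (7) were from 15 to 27 and from 5 to 7 over 14 alternatives, the lowest without ZW27941 replicate 1. Leaving out 1 library at a time gave 15 to 27 and 5 to 7. With a replicate block 21 fell and 7 rose, with DESeq2 23 and 7, and with upper quartile normalization 27 and 6. Of all genes, 2816 fell and 3333 rose with the main settings. Over the 14 alternatives these counts ran from 2131 to 3643 and from 2644 to 3584. Of the 29 members called, 20 kept their call and direction in all 14 alternatives, 9 lost it in at least 1 and 0 reversed. Adding pseudogene counts changed no count of members. Of the 18 members not called, 5 passed in at least 1 alternative and 7 changed sign. PSMB1 was at −0.018 and PSME4 at −0.015 with upper quartile normalization, and PSMA5 at 0.0078 for library size only and 0.0033 with no filter. With 1 library left out, PSMA1 was between −0.049 and 0.0052, PSMA5 −0.012 and 0.010, PSMB1 −0.021 and 0.021, PSMD4 −0.046 and 0.013, PSMD13 −0.070 and 0.0043, PSMG3 −0.021 and 0.060 and PSME4 −0.018 and 0.030. The cause was not tested.

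The counts gave no sign that the replicate numbers of the labels pair the libraries, which cannot show that they do not. The correlations of same-numbered deviations were −0.0099, 0.0031 and 0.043, and not every library correlated best with its own number. With the replicate block, the PSMD6 call was lost (edgeR adjusted p = 0.0536), and no other call of a member changed. Replicates of a group differed by more than sampling noise (chi-square per degree of freedom from 4.35 to 11.5). PSMA2, PSMA6 and PSMD9, the members below 10 CPM, had standard errors of 0.068 to 0.078. Members above 10 CPM also differed, with 0.039 for PSMG3 and 0.036 for PSMA1 against 0.025 for the more abundant PSMA5. The effect of depth was not tested. With 3 libraries a group, the exact tests of ratios could not go below 0.1.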
